A study of Mus musculus with 44 samples.

Results

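The genes described here are the *Fox*, *Sox*, *Tbx*, *Pax* and *Gata* genes of the mouse, which encode 5 families of transcription factors that act in the embryo. Autosomal protein-coding genes were taken by symbol from the GENCODE annotation of mm10 (GRCm38): *Fox* followed by a letter and a number, or *Sox*, *Tbx*, *Pax* or *Gata* followed by a number. *Sox2*, *Sox9*, *Sox17*, *Foxa2*, *Pax3*, *Tbx3*, *Gata3* and *Gata6* were left out. This gave 77 of 20807 autosomal protein-coding genes, namely 40 *Fox*, 15 *Sox*, 11 *Tbx*, 8 *Pax* and 3 *Gata* genes. The X-linked *Foxo4*, *Foxp3*, *Foxr2*, *Gata1*, *Sox3* and *Tbx22* were not included. A CTCF peak was assigned to a gene when its summit lay in the gene or within 50 kb of it, which assigned 514 of 59698 peaks in *Setdb1* KO ESCs and 412 of 44241 peaks in WT ESCs.

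CTCF was mapped by ChIP-seq in TT2 mouse ESCs (C57BL/6/CBA F1), grown in medium with serum and LIF, that were either WT or *Setdb1* KO. The *Setdb1* KO was induced from a conditional allele with 800 nM 4-OHT for 4 days, and the cells were harvested on day 6. No 4-OHT dose is given for the WT ESCs, so 4-OHT and the deletion cannot be told apart. The series holds 44 samples, of which 1 CTCF peak list of each of these 2 conditions was analysed. The labels name a second CTCF library of each condition, which was not analysed here. With a single list each, the spread between replicates is unknown and the conditions were not tested against each other. Stronger CTCF binding and a more efficient ChIP in *Setdb1* KO ESCs cannot be told apart. Depth was close in both libraries, at 27.4 M tags in WT and 27.6 M in *Setdb1* KO. The lists hold no expression values, so the labelled cell type was not checked against marker genes.

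Forkhead (Fox), HMG-box (Sox), T-box (Tbx), paired-box (Pax) and GATA zinc finger proteins bind DNA through domains that name their families and direct the formation of organs from all germ layers. Their genes are often controlled by distant enhancers. CTCF is a zinc finger protein whose binding motif has a direction, and cohesin-dependent chromatin loops form preferentially between CTCF motifs that face each other, which can limit the enhancers that a promoter contacts. SETDB1 is an enzyme that writes H3K9me3, a chromatin mark found at silent genes and at many transposons.

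A *Setdb1* KO peak that overlapped no WT peak was called KO-only, a WT peak that overlapped no *Setdb1* KO peak WT-only, and the rest shared. The number of fragments over the summit of each peak, its pileup, was solved as a whole number from the deposited values. Fold enrichment is the authors' ratio of the pileup to the local background. Bounds in parentheses after a share are Wilson 95% bounds, those after a ratio of 2 pileups are exact Clopper-Pearson 95% bounds, those after a median come from exact binomial order statistics, and all cover counting error only. A CTCF motif of 18 bases was called from the sequence within 50 bp of the summit.

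The motif sequences of the KO-only peaks with the highest fold enrichment, of shared sites with high and low ratios and of the strongest WT sites are printed first, because the contrast between them recurs in the values below. Each is given 5′ to 3′ on the strand that carries the motif, in mm10, with the 18 motif bases in capitals and 5 flanking bases in lower case.
*Gata4*, KO-only (chr14:63217987-63218014, plus strand): gtgaaGGTCAGAAGAGGGCATCAtatcc
*Tbx19*, KO-only (chr1:165165782-165165809, minus strand): acagaAGCCAGAAGAGGGCGCTAgatcc
*Sox5*, KO-only (chr6:144521000-144521027, plus strand): gtgggGGCCAGAAGAGGGCATCAgattc
*Pax7*, KO-only (chr4:139730668-139730695, plus strand): acagaAGCCAGAAGGGGGCGTCAgatcc
*Foxj2*, KO-only (chr6:122837193-122837220, minus strand): cttcaTGCCAGAAGAGGGCACCAgacct
*Foxn3*, KO-only (chr12:99179553-99179580, plus strand): agagaCACCAGAAGAGGGCACCAgatcc
*Tbx5*, shared, high ratio (chr5:119789952-119789979, plus strand): acaaaGGCCAGAAGAGGGTGTCAgacct
*Gata2*, shared, high ratio (chr6:88151521-88151548, plus strand): agagaAGCCAGAAGAGGGCATCAgtcca
*Foxd4*, shared, high ratio (chr19:24887353-24887380, plus strand): gccaaGGCCAGAAGAGGGCGCTGtattc
*Foxj3*, shared, high ratio (chr4:119642824-119642851, plus strand): cttggTCCCAGTAGGTGGCGCTGtttgt
*Sox6*, shared, low ratio (chr7:115489823-115489850, minus strand): ttgttGGCCAACAGGAGGCGCCActgtg
*Sox30*, strong in WT (chr11:45945020-45945047, plus strand): gccgcGGCCACCAGGGGGCAGCAtagat
*Sox12*, strong in WT (chr2:152437681-152437708, minus strand): aaagaAGCCAGCAGAGGGCGCGCctgcg
*Foxo6*, strong in WT (chr4:120230471-120230498, plus strand): ctgctTACCACTAGGAGGCGCCAagctg
*Foxn1*, strong in WT (chr11:78436176-78436203, minus strand): gaggcGTCCAGCAGGGGGCGTGAtcctg
The stretch CCAGAAGAGGGC stands at the same place in the *Tbx19*, *Sox5*, *Foxj2*, *Foxn3*, *Gata2* and *Foxd4* motifs and in none of the 4 strong WT motifs printed. The printed *Gata4*, *Pax7*, *Tbx5*, *Foxj3* and *Sox6* motifs do not hold this stretch either. The stretch is the most frequent sequence of 12 bases at motif positions 3 to 14 over all KO-only peaks with a motif in the genome (2984 of 6112). It is called the common core below.

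Each of the 77 genes had at least 1 CTCF summit in its window in *Setdb1* KO ESCs, against 92.3% of all autosomal protein-coding genes. The number of *Setdb1* KO peaks per gene ran from 1 at *Pax6*, *Sox7* and *Sox11* to 21 at *Sox5*, with a median of 6. In WT ESCs it ran from 0 at *Sox11* to 16 at *Sox5*, with a median of 5. More peaks were listed in *Setdb1* KO than in WT at 52 genes, equal numbers at 20, and fewer at 5 (*Foxo3*, *Pax2*, *Sox13*, *Tbx4* and *Tbx15*). The same was not counted over all genes, but the whole *Setdb1* KO list is the longer, with 59698 peaks against 44241. A KO-only peak lay near 58 of the 77 genes, beside 72.0% of all autosomal protein-coding genes. Since long windows hold more summits, peaks were also set per Mb. The windows held 42.2 *Setdb1* KO peaks per Mb and 33.8 WT peaks per Mb, against 31.7 and 23.9 over the windows of all genes. The 62 other developmental transcription factor genes compared below had 42.2 and 33.7 per Mb. The 39 clustered *Hox* genes had 51.6 and 39.2. Among the 5 families, the density was lowest for *Sox* genes at 31.4 *Setdb1* KO peaks per Mb and highest for the 3 *Gata* genes at 55.6.

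**Figure D1:**
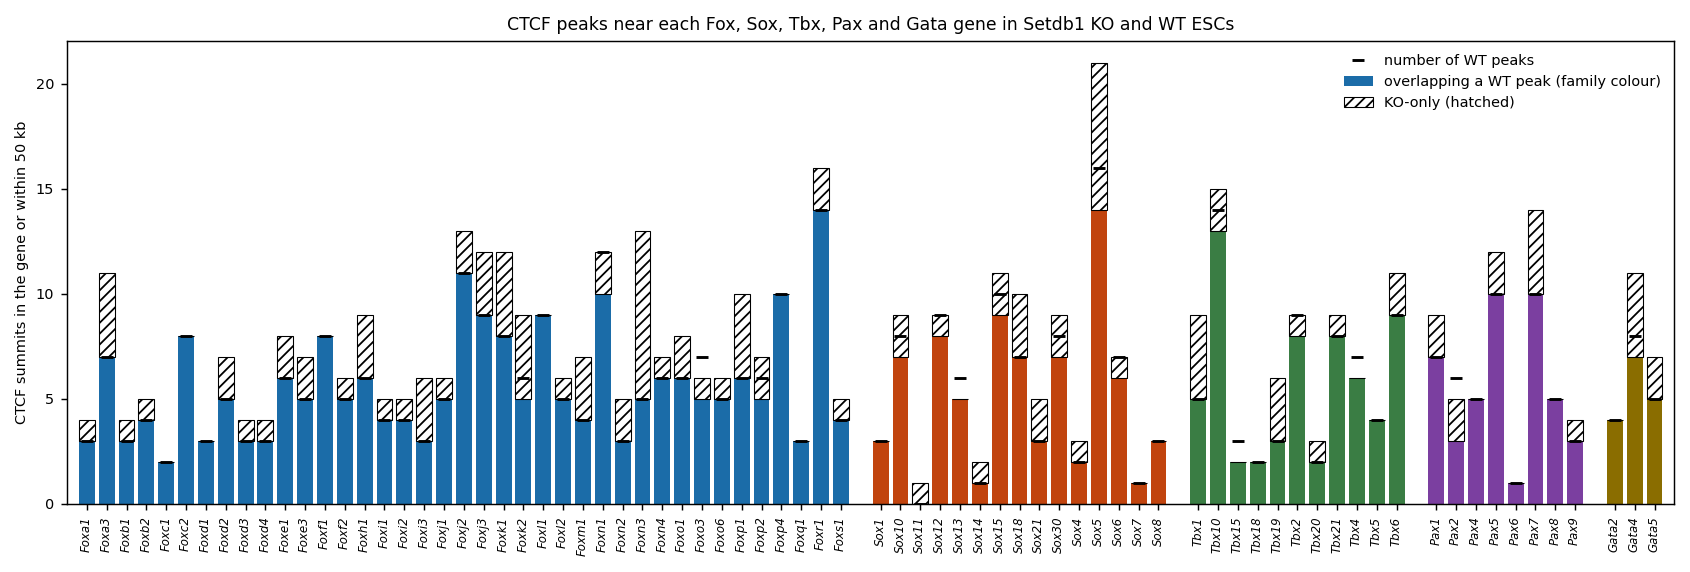
Number of CTCF summits in each gene or within 50 kb (vertical axis) for the genes in family order (horizontal axis), with *Setdb1* KO peaks that overlap a WT peak in the family colour, KO-only peaks hatched above them and the number of WT peaks as a black dash. *Sox5* stands highest with 21 *Setdb1* KO and 16 WT peaks, and *Foxn3* has the most KO-only peaks, 8 of 13.

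Among the *Fox* genes, *Foxr1* had the most peaks, 16 in *Setdb1* KO and 14 in WT. It was followed by *Foxj2* with 13 and 11 peaks and by *Foxn3* with 13 and 5. *Foxn1*, the gene needed for the thymic epithelium, had 12 peaks in each condition, of which 2 were KO-only and 2 WT-only. Among the *Sox* genes, *Sox5*, which acts with *Sox6* in cartilage, held 21 and 16 peaks over a gene of 954 kb. *Sox15* had 11 peaks in *Setdb1* KO and 10 in WT, and *Sox18*, a gene of vessel and lymphatic development, had 10 and 7. *Sox10*, a neural crest gene, had 9 and 8. Genes with like numbers of peaks differed in their KO-only peaks, since *Foxr1* had 2 of 16 and *Foxn3* had 8 of 13.

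Among the *Tbx* genes, *Tbx10* had 15 peaks in *Setdb1* KO and 14 in WT. *Tbx6*, which specifies paraxial mesoderm, had 11 and 9, *Tbx21*, which encodes the T-bet protein of type 1 helper T cells, had 9 and 8, and *Tbx2* had 9 in each. Among the *Pax* genes, *Pax7*, which marks muscle stem cells, had 14 and 10, *Pax5*, which commits cells to the B lineage, had 12 and 10, and *Pax1*, a sclerotome gene, had 9 and 7. *Pax8*, a thyroid and kidney gene, had 5 in each condition with no KO-only peak. *Gata4*, which acts in the heart and the primitive endoderm, had 11 and 8 peaks, *Gata5* had 7 and 5, and *Gata2*, a gene of blood stem cells, had 4 in each.

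Of the 514 *Setdb1* KO peaks near these genes, 123 were KO-only, which is 23.9% (20.4 to 27.8). This lies below the 28.8% of all *Setdb1* KO peaks and its interval holds the 27.6% of peaks in the windows of all autosomal protein-coding genes. With summits in the gene or within 10 kb the share was 29.2% (23.7 to 35.4), against 27.7% for all such genes, so the order depends on the window. By family the KO-only share was 25.7% for *Fox* (69 of 268 peaks, 20.9 to 31.3), 23.2% for *Sox* (23 of 99, 16.0 to 32.5), 20.0% for *Tbx* (14 of 70, 12.3 to 30.8), 20.0% for *Pax* (11 of 55, 11.6 to 32.4) and 27.3% for *Gata* (6 of 22, 13.2 to 48.2). The 5 intervals overlap each other and each holds 28.8%, so the families could not be told apart at these counts. In 62 other developmental transcription factor genes (*Lhx*, *Nkx*, *Irx*, *Dlx*, *Msx*, *Emx*, *Otx*, *Pou* and sine oculis homeobox genes), 68 of 289 peaks were KO-only, or 23.5% (19.0 to 28.7). Near 39 clustered *Hox* genes the share was 23.9% (11 of 46, 13.9 to 37.9).

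The number of KO-only peaks differed between genes. At least 3 lay near each of 16 genes, with 8 at *Foxn3*, 7 at *Sox5* and 4 each at *Foxa3*, *Foxk1*, *Foxk2*, *Foxp1*, *Gata4*, *Pax7* and *Tbx1*. Those with 3 included *Foxh1*, *Foxi3*, *Foxj3*, *Foxm1*, *Sox18* and *Tbx19*. None lay near 19 genes, among them *Foxc1*, *Foxc2*, *Foxf1* and *Foxl1*, *Pax4*, *Pax6* and *Pax8*, *Sox1*, *Sox7* and *Sox8*, *Tbx4* and *Tbx5*, and *Gata2*. The windows differ in length, with 474 kb at *Foxn3* and 1054 kb at *Sox5* but 110 kb at *Tbx1*. The share of all genes with at least 3 KO-only peaks was not counted. Whether the spread exceeds that expected from window length was not tested. Most KO-only peaks were low: their pileups ran from 10 to 76 fragments with a median of 18, and their median fold enrichment was 4.97, against 14.2 for *Setdb1* KO peaks that overlapped a WT peak.

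The highest fold enrichment of any KO-only peak here was in an intron of *Gata4* (chr14:63217792-63218353), with 54 fragments and a fold enrichment of 17.1. It is 1 of 4 KO-only peaks of *Gata4*, the others having 17, 18 and 21 fragments. The next lies 5.01 kb upstream of *Tbx19*, which drives the pituitary corticotroph lineage (chr1:165165606-165165988), with 76 fragments and a fold enrichment of 15.8. An intron of *Sox5* holds the following peak (chr6:144520833-144521210), with 46 fragments and a fold enrichment of 14.5. These 3 peaks had more fragments than the median *Setdb1* KO peak of the whole list, which had 40.

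Downstream of *Pax7*, a KO-only peak (chr4:139730470-139730924) had 43 fragments and a fold enrichment of 13.8. An intron of *Foxj2* (chr6:122837010-122837569) had 47 fragments and a fold enrichment of 12.3, and a peak downstream of *Foxn3* (chr12:99179440-99179751) had 35 fragments and 9.97. *Sox11*, a gene of neural progenitors and neurons, had its only peak in its exon (chr12:27335770-27336090), with 31 fragments, a fold enrichment of 9.88 and no CTCF motif. *Sox11* is thus the gene of the 77 with a peak in *Setdb1* KO ESCs and none in WT ESCs. The remaining peaks of the 10 lie 18.5 kb upstream of *Foxk1* (29 fragments, 9.27), in another intron of *Sox5* (34 fragments, 8.98) and at the promoter of *Rsph6a* in the window of *Foxa3* (29 fragments, 8.76). A motif was present in 9 of the 10, repeat-masked sequence made up over 50% of the sequence within 50 bp of the summit in 7, and the common core was present in 6.

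At 385 sites that pair exactly 1 peak of each list, the *Setdb1* KO pileup over the WT pileup had a median of 1.35 (1.31 to 1.38), where the median of all 41876 such sites was 1.36. The median was 1.37 (1.33 to 1.43) at 196 *Fox* sites, 1.29 (1.2 to 1.38) at 74 *Sox* sites, 1.28 (1.14 to 1.34) at 55 *Tbx* sites, 1.45 (1.29 to 1.53) at 44 *Pax* sites and 1.38 (1.13 to 1.79) at 16 *Gata* sites. The interval of the *Tbx* sites lies below 1.36, and the other 4 intervals hold it. The *Setdb1* KO pileup was below the WT pileup at 36 sites, or 9.35% (6.83 to 12.7), beside 7.41% of all shared sites. It was at least 2 times the WT pileup at 45 sites, or 11.7% (8.85 to 15.3), beside 9.39%. Sites below 1 made up 18.2% of *Tbx* sites (10 sites, 10.2 to 30.3) and 14.9% of *Sox* sites (11 sites, 8.51 to 24.7), against 5.10% of *Fox* sites (10 sites, 2.80 to 9.14). The interval of a single site lay above 1 at 128 sites, beside 31.5% of all shared sites, and below 1 at 1 site, in *Sox6*, beside 0.0501%.

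**Figure D2:**
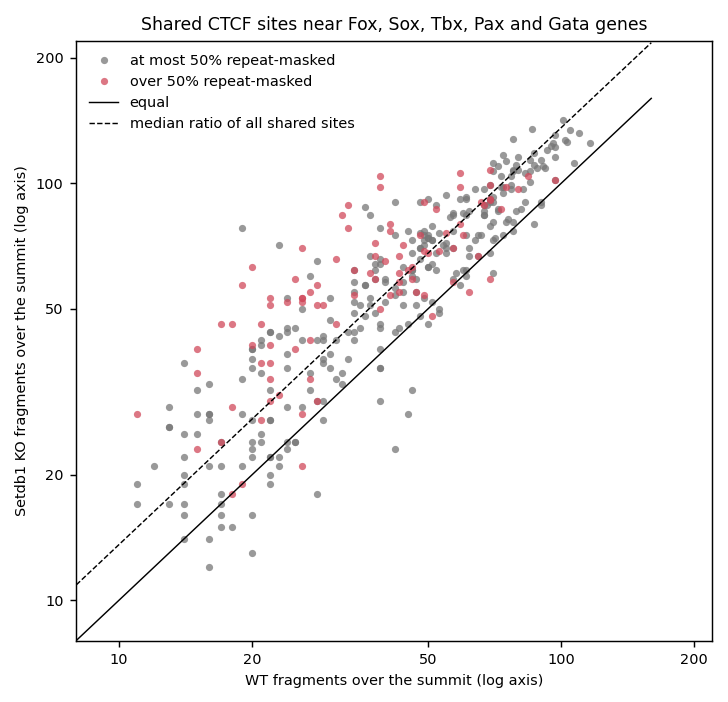
*Setdb1* KO fragments (vertical log axis) against WT fragments (horizontal log axis) over the summit of each of the 385 shared sites, with sites over 50% repeat-masked in red, equal values as a solid line and the ratio of 1.36 as a dashed line. Most sites lie along the dashed line, and the red points spread above it, with a median ratio of 1.56 against 1.31 for the grey points.

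Summed over the shared sites of a gene, the *Setdb1* KO fragments exceeded the WT fragments at 74 of the 76 genes with a shared site. The exceptions were *Pax2*, a kidney and eye gene, with 87 fragments in each condition, and *Sox7*, an endothelial gene, with 12 in *Setdb1* KO and 16 in WT over its only site. This count was not made over all genes. Of all shared sites, 7.41% had a *Setdb1* KO pileup below the WT pileup, so an excess is the common state. The interval of the ratio lay above 1 at 60 genes, beside 78.1% of all autosomal protein-coding genes with a shared site, and held 1 at 16. It held the genome median of 1.36 at 63 genes, so most of the 76 values cannot be told apart from that level at these counts.

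The interval lay above 1.36 at 8 genes, beside 5.41% of all autosomal protein-coding genes with a shared site. *Foxb1*, a gene of the diencephalon, had 211 fragments in *Setdb1* KO and 111 in WT over 3 sites (1.90, 1.5 to 2.41). *Foxd1*, a gene of the renal stroma, had 166 and 89 (1.87, 1.43 to 2.44), and *Foxd4* had 206 and 111 (1.86, 1.47 to 2.36). *Foxp4* had 706 and 410 over 10 sites (1.72, 1.52 to 1.95), and each of its sites was higher in *Setdb1* KO, by 1.24 to 2.36 times. *Pax8* had 285 and 166 (1.72, 1.41 to 2.09), *Gata2* 277 and 167 (1.66, 1.36 to 2.02), *Sox5* 611 and 369 (1.66, 1.45 to 1.89) and *Foxc2*, a gene of lymphatic vessels, 694 and 446 (1.56, 1.38 to 1.76). Of these 8, *Sox5*, *Foxb1* and *Foxd4* also had KO-only peaks.

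The interval lay below 1.36 at 5 genes, of the *Sox* and *Tbx* families, beside 5.26% of all such genes. *Tbx4*, a gene of the hindlimb and lung, had 310 fragments in *Setdb1* KO and 292 in WT (1.06, 0.902 to 1.25). *Tbx2*, which patterns the heart, had 442 and 396 (1.12, 0.972 to 1.28), but shares the 5 sites of *Tbx4*. *Sox13* had 364 and 318 (1.14, 0.982 to 1.33), *Sox6* 318 and 277 (1.15, 0.974 to 1.35) and *Sox15* 623 and 528 (1.18, 1.05 to 1.33).

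**Figure D3:**
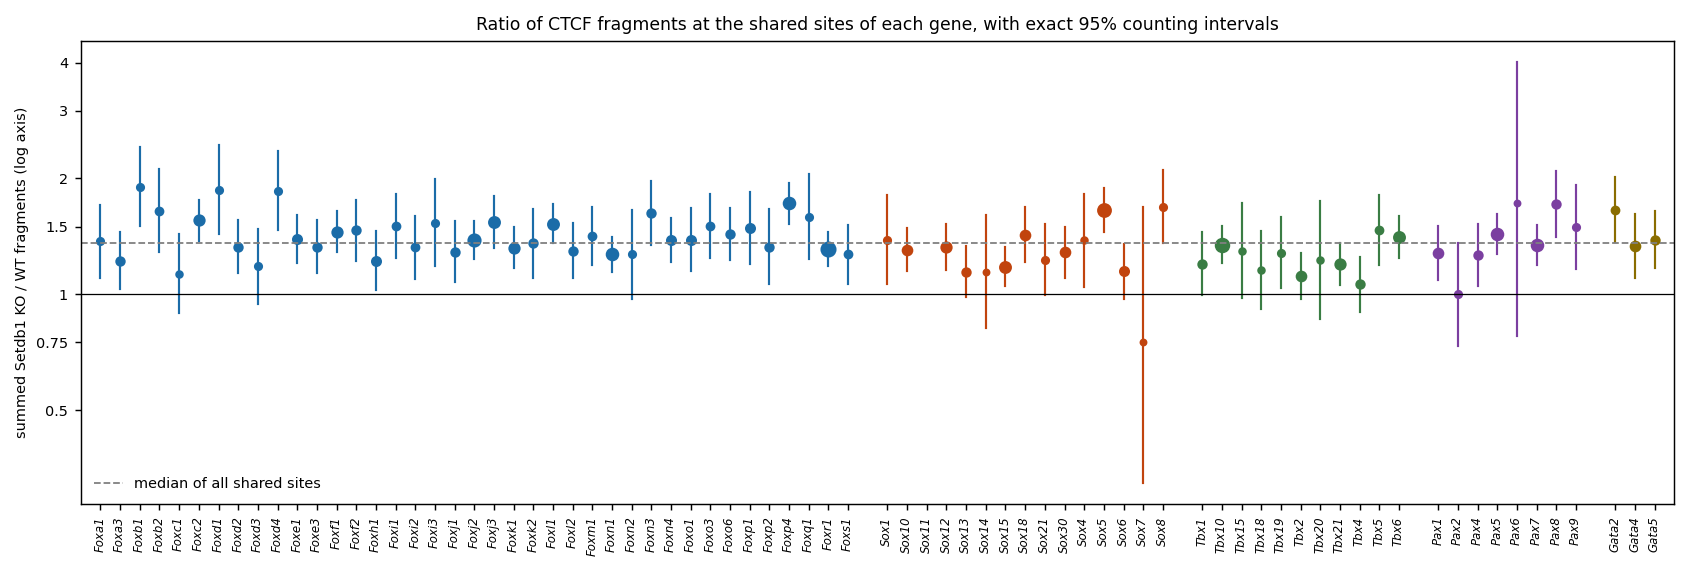
Summed *Setdb1* KO over WT fragments at the shared sites of each gene (vertical log axis) with its exact 95% interval, for genes in family order, with larger points for more sites, a solid line at 1 and a dashed line at the median of all shared sites, 1.36. *Foxb1* stands highest at 1.90 and *Sox7*, which has a single site, lowest at 0.75.

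Among shared sites with at least 20 WT fragments, the highest ratio was 42.7 kb upstream of *Tbx5*, the T-box gene of the heart and forelimb, where WT had 20 fragments and *Setdb1* KO had 63 (3.15, 1.88 to 5.50). In the window of *Foxj3* a site had 23 and 71 fragments (3.09, 1.91 to 5.18), and 42.4 kb upstream of *Gata2* a site had 33 and 89 (2.70, 1.79 to 4.15). These were followed by an intron of *Sox5* with 26 and 70 (2.69, 1.69 to 4.4), the *Fam57b* gene in the window of *Tbx6* with 39 and 104 (2.67, 1.83 to 3.96) and a site 13.8 kb from the start of *Foxd4* with 32 and 84 (2.63, 1.73 to 4.08). All 6 had a motif and 5 were over 50% repeat-masked, the exception being the site near *Foxj3*.

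The lowest ratio was in an exon of *Sox6*, a cartilage and erythroid gene, where WT had 42 fragments and *Setdb1* KO had 23 (0.548, 0.314 to 0.932). The sites that followed were at the *Zfp800* promoter near *Pax4* with 45 and 28 (0.622, 0.374 to 1.02), near *Tbx21* with 28 and 18 (0.643, 0.335 to 1.2), in an exon of *Foxp1* with 20 and 13 (0.650, 0.297 to 1.37), downstream of *Pax7* with 46 and 32 (0.696, 0.429 to 1.12) and 1.23 kb upstream of *Tbx1* with 39 and 30 (0.769, 0.461 to 1.27). Only the *Sox6* site had a motif, and none was over 50% repeat-masked. The 5 shared sites with the highest WT fold enrichment had ratios of 1.08 to 1.36. The *Lsm11* promoter near *Sox30* had 116 fragments in WT and 125 in *Setdb1* KO (1.08, 0.830 to 1.4). A site near *Sox12* had 103 and 126, *Foxo6* 105 and 134, *Foxn1* 95 and 123, and an exon of *Sox8* 87 and 118. All 5 had a motif and none was over 50% repeat-masked.

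Peaks without a motif and peaks in repeats were more often KO-only than the others, near these genes and over all peaks. A motif was found in 55.1% of the *Setdb1* KO peaks near the genes (283 of 514, 50.7 to 59.3). It was found in 31.7% of the KO-only peaks and 62.4% of those overlapping a WT peak, against 35.5% and 63.3% of all peaks. Of peaks with a motif 13.8% (39 of 283, 10.2 to 18.3) were KO-only, and of peaks without 36.4% (84 of 231), where all peaks had 18.5% and 41.6%. Peaks over 50% repeat-masked were KO-only in 32.2% (25.1 to 40.2) of 143 cases and had a median shared ratio of 1.56 (1.38 to 1.67). The other 371 were KO-only in 20.8% (16.9 to 25.2) and had a median of 1.31 (1.28 to 1.35). Over all peaks the corresponding values were 40.4% and 1.52 for masked and 24% and 1.32 for other peaks.

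**Figure D4:**
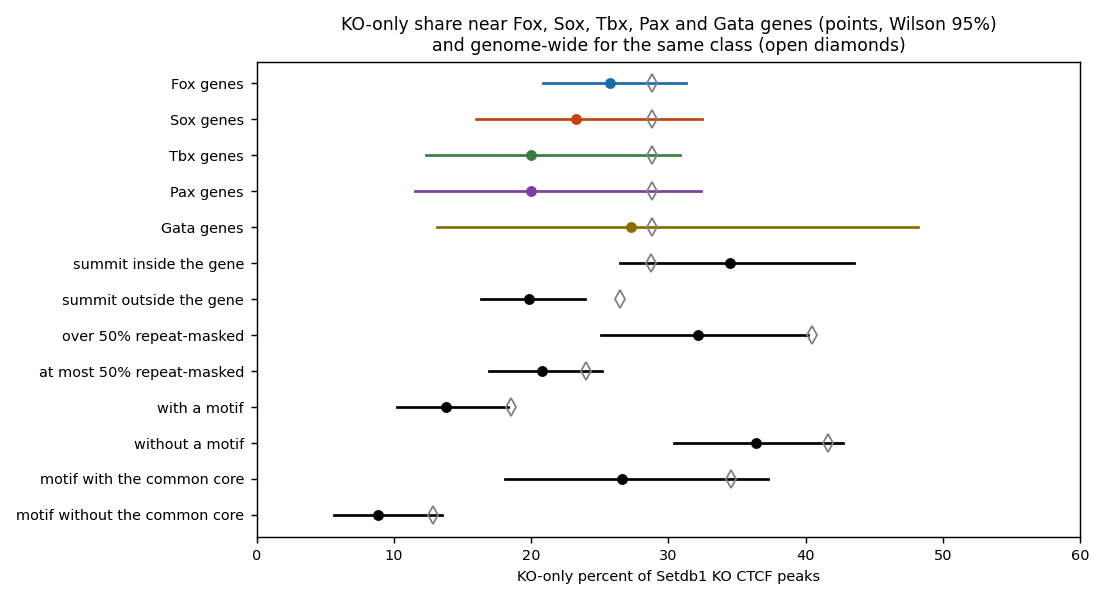
KO-only percent of *Setdb1* KO peaks (horizontal axis) by family, place and sequence class (vertical axis), as points with Wilson 95% intervals for peaks near the 77 genes and as open diamonds for the same class over all peaks or all genes (for the family rows, all peaks). The family intervals all hold the 28.8% of all peaks, while peaks without a motif stand at 36.4% and those with a motif at 13.8%.

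The common core CCAGAAGAGGGC was present at the motif of 79 *Setdb1* KO peaks near 48 of the genes, which is 15.4% of peaks (12.5 to 18.7) against 14.5% of all peaks. Of these 79 peaks, 88.6% were over 50% repeat-masked, against 17.2% of peaks with another motif. Peaks with the core were KO-only in 26.6% of cases (18.1 to 37.2) and had a median shared ratio of 1.67 (1.56 to 1.82). Peaks with another motif were KO-only in 8.82% (5.65 to 13.5) and had a median of 1.35 (1.3 to 1.41). Seen from the other side, the core was present in 53.8% of KO-only motif peaks (21 of 39, 38.6 to 68.4) and in 23.8% of shared ones (58 of 244, 18.9 to 29.5). All peaks gave the same order, with 34.6% and 1.56 for peaks with the core and 12.8% and 1.36 for those with another motif. These comparisons leave out peaks without a motif, which were 84 of the 123 KO-only peaks near the genes. Peaks without a motif were KO-only in 36.4% of cases. The interval of peaks with the core holds the 23.9% of all 514 peaks near the genes. The core was derived from KO-only peaks of the whole genome, the *Fox*, *Sox*, *Tbx*, *Pax* and *Gata* ones included, so its KO-only share is a description.

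*Sox5* had the most peaks with the core, 7 of 21, followed by *Foxp4* with 5 and *Foxr1* with 4. Of 40 genes with shared sites of both kinds, the summed ratio was higher at the sites with the core at 26 and lower at 13. These genes are not independent. *Foxf1*, *Foxc2* and *Foxl1* count the same site with the core (2.51), as do *Tbx2* and *Tbx4* (1.16). Many of the ratios rest on 1 site with the core, and the count over all genes was not made. At *Sox5* the summed ratio was 1.96 at shared sites with the core and 1.48 (1.25 to 1.75) at its other shared sites. At *Gata2* it was 2.14 and 1.31 (0.997 to 1.72), and at *Foxp4* 1.88 and 1.57 (1.32 to 1.87). *Tbx10*, with 2.18 and 1.28, *Foxc2*, with 2.51 and 1.46, and *Foxd1*, with 2.41 and 1.69, had the same order. *Pax8* had no site with the core and a ratio of 1.72. At *Foxa3* and *Sox15* the sites with the core had ratios of 1.00 and 0.855. The order was reversed at *Foxe1*, with 1.25 at its sites with the core and 1.47 (1.23 to 1.75) at the others, and at *Tbx21*, with 0.887 and 1.25 (1.09 to 1.43). The same held at *Tbx20*, with 0.941 at 1 site with the core and 2.55 (1.23 to 5.67) at 1 other site. Leaving out every site with the core, the median ratio was 1.32 (1.29 to 1.35) near the 77 genes and 1.34 over all shared sites. What part the repeats have in the differences between genes was not tested.

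Place in the gene was counted over pairs of a gene and a peak, so that a peak in the windows of several genes counts once for each. A summit inside a gene was KO-only in 34.5% of cases (40 of 116, 26.5 to 43.5), and a summit outside in 19.9% (85 of 428, 16.4 to 23.9). Over all autosomal protein-coding genes these shares were 28.7% and 26.5%. The inside interval holds 28.7%, and the outside interval lies below 26.5%. Families differed in the inside share, with 42.0% for *Fox* (21 of 50), 31.25% for *Sox* (10 of 32) and 57.1% for *Gata* (4 of 7). It was 14.3% for *Tbx* (1 of 7) and 20.0% for *Pax* (4 of 20), not above their shares in the whole windows. In the 70 genes under 100 kb the shares were 35.5% inside (22 of 62, 24.7 to 47.9) and 19.3% outside (79 of 410, 15.7 to 23.4). In the 7 genes of at least 100 kb (*Foxn3*, *Foxp1*, *Foxp2*, *Pax5*, *Sox5*, *Sox6* and *Tbx15*) they were 33.3% inside (18 of 54) and 33.3% outside (6 of 18). By distance from the 5′ end of the gene, the lowest KO-only share was at 10 to 25 kb, with 14.7% of 116 pairs (9.36 to 22.2), where all genes had 26.5%. Near these genes, 46.9% of *Setdb1* KO peaks were intergenic, 32.3% intronic, 13.4% at a promoter and 7.39% exonic.

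A *Setdb1* KO summit lay within 1 kb of an annotated transcription start at 16 of the 77 genes, beside 25.0% of all autosomal protein-coding genes, and a WT summit at 12, beside 19.9%. The start peak of highest fold enrichment, 29.2, was at *Foxs1*, with 59 fragments in WT and 92 in *Setdb1* KO (1.56, 1.11 to 2.20). *Foxo6*, the FoxO gene of the brain, had 69 and 90, *Foxd2* 70 and 107 (1.53, 1.12 to 2.1) and *Foxa1*, a pioneer factor of the endoderm, 61 and 84. *Sox13* had 78 and 81, *Sox6* 34 and 52, *Sox15* 46 and 60 and *Tbx1*, a gene of the pharyngeal arches, 34 and 49. *Pax1* had 30 and 39, *Pax5* 12 and 21 and *Sox8* 13 and 29 (2.23, 1.12 to 4.67). All 11 of these shared start sites were higher in *Setdb1* KO, and the interval lay above 1 at *Foxs1*, *Foxd2* and *Sox8*. Of all shared sites in the genome, 7.41% had a *Setdb1* KO pileup below the WT pileup and 31.5% an interval above 1.

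Start sites with a KO-only peak were low. They were found at *Tbx20*, a heart gene, with 24 fragments, *Foxn3* with 19, *Foxm1*, a regulator of mitotic genes, with 17, *Foxk2* with 15 and *Foxj1*, the gene of motile cilia, with 14. These 5 of 77 genes stand beside 7.67% of all autosomal protein-coding genes, and none of the 5 had a motif. *Foxa3*, a liver gene, had the reverse, a WT-only peak at its start with 18 fragments and no *Setdb1* KO peak within 1 kb. At 7 start sites with a motif, the motif pointed in the direction of the gene at 6 (85.7%, 48.7 to 97.4), against 54.9% of 2744 such cases over all genes.

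The motifs of 3 start sites are shown: *Foxs1* has the start peak of highest fold enrichment, and *Foxd2* and *Tbx1* have summits 0.158 kb and 0.013 kb from their starts.
*Foxs1* (chr2:152933821-152933848, minus strand): acattGGTCACTAGAGGGCGCCAgggct
*Foxd2* (chr4:114908984-114909011, minus strand): agtttCAACACCAGGGGGCGCTGaggag
*Tbx1* (chr16:18590651-18590678, minus strand): agcgcCGCCGGTAGGGGGAGCGAggcgg
In the RefSeq promoter table (GRCm38.p6), 54 of the 77 genes had an entry and 66 promoters, of which 6 (9.09%, 4.23 to 18.4) held a motif above the threshold, at *Foxa3*, *Foxd1*, *Foxd2*, *Tbx1*, *Tbx10* and *Tbx21*. Over all autosomal promoters the share was 4.27% (1341 of 31396). Upstream of *Foxd2*, whose start carries the peak of 70 WT and 107 *Setdb1* KO fragments, the 250 bases before the start (chr4:114908899-114909148, minus strand) hold the motif in capitals, beginning 108 bases before the start, and 16 CpG.
*Foxd2* promoter: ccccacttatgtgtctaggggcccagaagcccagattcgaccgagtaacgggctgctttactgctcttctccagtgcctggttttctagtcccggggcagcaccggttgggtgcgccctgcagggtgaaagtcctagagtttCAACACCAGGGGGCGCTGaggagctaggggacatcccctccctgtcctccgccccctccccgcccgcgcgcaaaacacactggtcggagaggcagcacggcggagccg
A match is a description of the letters and not a proof of binding.

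Of the 412 WT peaks near the genes, 17 were WT-only, which is 4.13% (2.59 to 6.51) beside 3.22% of all WT peaks. There were 6 near *Fox* genes, 6 near *Sox* genes, 2 each near *Tbx* and *Pax* genes and 1 near *Gata4*. The share was 7.14% (3.31 to 14.7) for *Sox* and 2.93% (1.35 to 6.24) for *Fox*, with intervals that overlap. All 17 were low, with 11 to 19 fragments and a median fold enrichment of 4.54. None had a motif within 50 bp of the summit, and neither property was counted over all WT-only peaks. The *Foxa3* peak (chr7:19023473-19023706) nevertheless spans the *Foxa3* promoter motif, which begins 125 bases before the start. The highest fold enrichments were 6.46 in an intron of *Pax2* (19 fragments), 6.14 at the *Foxa3* start (18), 5.49 near *Ren1* in the window of *Sox13* (16), 5.47 at the *Cybc1* promoter in the window of *Foxk2* (19) and 5.39 near *Slf2* in the window of *Pax2* (16). At pileups this close to the threshold for a peak, an absent overlap does not show that binding was lost.

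Groups of these genes that lie within 100 kb of each other shared their sites. The *Foxf1*, *Foxc2* and *Foxl1* genes on chromosome 8, which act in lung, vessel and gut mesenchyme, had 10 peaks in each condition and no KO-only peak, with 501 fragments in WT and 767 in *Setdb1* KO (1.53, 1.37 to 1.72). From 23.3 kb upstream to 22.6 kb downstream of the *Foxc2* start, the 8 sites had 102, 14, 97, 14, 97, 64, 39 and 19 fragments in WT and 127, 19, 122, 22, 131, 97, 98 and 78 in *Setdb1* KO. The ratio was 1.25 to 1.57 at the 6 sites upstream and up to 14.5 kb downstream, and 2.51 and 4.11 at the last 2. The motif of the site at 2.51 holds the common core, in a window that is 80.2% repeat-masked, and the last site has no motif. 3 motifs of this cluster are printed in order along the chromosome, the last being that of the site at 2.51.
*Foxc2*, 23.3 kb upstream (chr8:121092859-121092886, minus strand): gaaacGGACAGCAGGCGGCGCTGtctcc
*Foxc2*, 11.9 kb upstream (chr8:121104229-121104256, plus strand): aaaacCACCACAAGAGGGCGCCAgagtc
*Foxc2*, 20.9 kb downstream (chr8:121137042-121137069, minus strand): gtggaGGCCAGAAGAGGGCACCAgatcc

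*Tbx2* and *Tbx4* on chromosome 11 stood at the other end. They had 9 peaks in each condition, 1 of the *Setdb1* KO peaks being KO-only (25 fragments, 1.35 kb upstream of *Tbx2*), and 396 fragments in WT and 442 in *Setdb1* KO over 7 shared sites (1.12, 0.972 to 1.28). At 2 of the 7 sites the WT pileup was the higher, with 87 against 80 and 53 against 49 fragments. *Foxq1* and *Foxf2* on chromosome 13 had 6 WT and 7 *Setdb1* KO peaks and 271 and 377 fragments (1.39, 1.19 to 1.63). *Foxd2* and *Foxe3*, a lens gene, on chromosome 4 had 5 and 7 peaks and 287 and 382 fragments (1.33, 1.14 to 1.56). The interval of the *Foxf1*, *Foxc2* and *Foxl1* group lies above that of *Tbx2* and *Tbx4*.

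**Figure D5:**
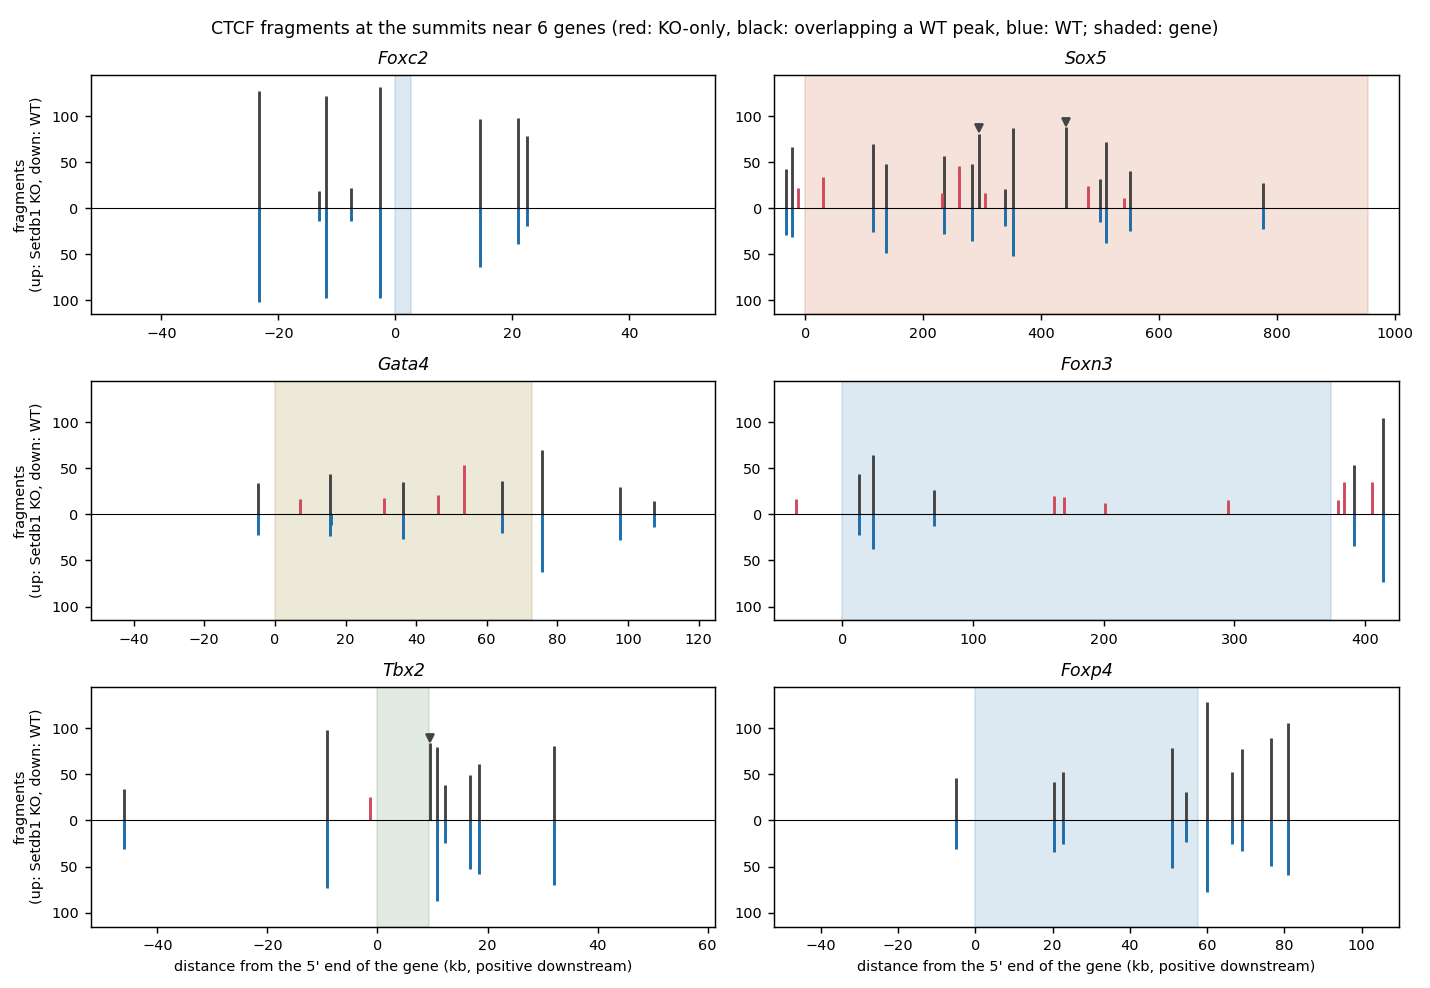
Fragments over each CTCF summit near *Foxc2*, *Sox5*, *Gata4*, *Foxn3*, *Tbx2* and *Foxp4*, by distance from the 5′ end of the gene in kb (horizontal axis), with *Setdb1* KO drawn upward and WT downward, KO-only peaks in red and the gene shaded; a triangle marks a *Setdb1* KO peak that meets several peaks and has no WT value drawn. *Foxc2* and *Foxp4* have no red line, and *Foxn3* has 8.

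Single loci differed in their number of KO-only peaks, among long and among short genes. *Sox6*, a gene of 568 kb, had 1 KO-only peak of 7, and *Tbx1*, a gene of 9.69 kb, had 4 of 9. *Foxn3*, a gene of 374 kb, had 5 shared sites with 180 fragments in WT and 292 in *Setdb1* KO, and KO-only peaks of 12 to 35 fragments, of which 4 lie in the gene. *Foxp4*, a gene of 57.5 kb, had 10 shared sites and no KO-only peak. *Pax6*, the eye gene, had a single site in its window, with 11 and 19 fragments (1.73, 0.781 to 4.02). *Foxk1* had a motif in 11 of its 12 peaks, its 4 KO-only peaks with 19 to 29 fragments included, whereas *Foxp2* had a motif in 0 of 7.

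Motif direction was compared on each side of the genes, using shared *Setdb1* KO peaks with a motif. Within 50 kb, 35 of the 77 genes had such a peak on each side. The motifs faced each other across the gene at 17 of the 35 (48.6%, 33.0 to 64.4), pointed away from each other at 2 (*Foxp4* and *Sox10*) and pointed the same way at 16. Over all autosomal protein-coding genes flanked in this manner, the motifs faced each other at 25.3% (2129 of 8402) and pointed away at 2269. In the other developmental transcription factor genes the facing share was 53.3% (8 of 15, 30.1 to 75.2). The 17 genes were *Foxc2*, *Foxe3*, *Foxf1*, *Foxh1*, *Foxi2*, *Foxj1*, *Foxj2*, *Foxl1*, *Foxm1*, *Foxn1*, *Foxo3*, *Foxs1*, *Gata2*, *Gata5*, *Sox15*, *Sox18* and *Tbx10*, and *Foxc2* and *Foxl1* share their flanking sites. At *Foxc2* the facing sites are 11.9 kb to the left, with 97 fragments in WT and 122 in *Setdb1* KO, and 18.2 kb to the right, with 39 and 98. Genes that lie in one interval between sites are not independent, and chromatin contacts were not analysed here.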

How the data were processed

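CTCF ChIP-seq peak lists of WT and *Setdb1* KO ESCs were analysed, 1 library each, and the second CTCF library of each condition and the other assays and cell lines of the series were not analysed here. The authors mapped reads to mm10 (Bowtie 1.2), discarded duplicates (Picard) and ran MACS2 2.1.0 on each library against its input at a q of 0.05. The deposited fold enrichment is a ratio with a pseudocount of 1 on pileup and background, the deposited p and q are −log10 values, the deposited score is a whole-number form of the −log10 q that was not used, and the other deposited column is the summit offset in bp.

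Fold enrichment and Poisson p were solved together for the pileup and the background (tolerance 0.001 on −log10 p) in 100% of peaks of each list, and this was tested on simulated data, with 100% of 3905 simulated peaks recovered. The genome size of 2430000000 in the Methods gave 27.4 M tags and 30.9 M input tags for WT and 27.6 M and 28.5 M for *Setdb1* KO. Shared peaks overlap by at least 1 bp. 23 peaks lie in the windows of more than 1 of the genes and were counted once in totals of peaks and once per gene in counts by gene, place in the gene and distance. Genes and starts came from GENCODE vM21, sequences and repeat masking (lower-case letters) from RefSeq GRCm38.p6. Windows of the 1000 shared peaks of highest −log10 q in the *Setdb1* KO list gave the motif matrix, with the threshold at the 99th percentile of windows 1 kb to the left of summits. Python 3.11.15, numpy 2.4.6, scipy 1.17.1, pandas 2.3.3, matplotlib 3.10.9, pysam 0.24.0 and samtools 1.23.1 were used.

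The genes and lists were chosen with earlier results of these data known. Named by rule were the 4 genes per family with the most *Setdb1* KO peaks, genes with no peak, up to 15 genes with a summit within 1 kb of a start, the 10 KO-only and 5 WT-only peaks of highest fold enrichment, the 6 highest and 6 lowest ratios with at least 20 WT fragments, the 5 shared sites of highest WT fold enrichment and neighbours within 100 kb. The common core, the motif directions and the other genes and single sites named were chosen after their values were seen. 1 gene that is counted in the totals is not reported here by name. Alternatives were other overlaps, thresholds, windows and motif settings.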

Additional observations from a re-analysis of the deposited data

How the results depend on the processing

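No paired analysis was possible because 1 library of each condition was analysed and no test was run, so no replicate could be left out. Of 111 alternative values, 82 stayed within the counting interval (counts of genes, within 1.5 times) and 29 moved. With a reciprocal overlap of 50%, 29.96% of *Setdb1* KO peaks near the genes were KO-only and 12.4% of WT peaks WT-only (34.1% and 11.1% of all peaks). With both lists at equal length by −log10 q, the values were 9.80% and 11.9% (11.7% and 10.9% of all peaks). The KO-only shares were 8.96% for *Fox*, 10.7% for *Sox*, 12.9% for *Tbx*, 4.76% for *Pax* and 16.7% for *Gata*. With *Setdb1* KO pileups scaled down by the median ratio of the genome and peaks kept from a −log10 p of 10 upwards, they were 11.4% and 8.24%, the median ratio was 0.993, and the shares were 9.19% for *Fox*, 15.4% for *Sox* and 7.89% for *Pax*. The equal length and the scaling each remove the overall excess of *Setdb1* KO peaks by construction. With summits inside the gene only, KO-only was 34.5%, against 28.8% of peaks inside any autosomal protein-coding gene. WT-only was 7.14%, the median ratio 1.38 and the genes with a summit 42. The KO-only share was 42.0% for *Fox*, 31.25% for *Sox*, 14.3% for *Tbx*, 20.0% for *Pax* and 57.1% for *Gata*. Within 10 kb the KO-only share was 29.2% (27.7% near all genes) and 33.9% for *Fox*, with a motif in 49.6%. By nearest gene it was 29.8% (27.6% near all genes) and 33.3% for *Fox*. In these settings the share near the *Fox*, *Sox*, *Tbx*, *Pax* and *Gata* genes was above that near all genes, unlike in the 50 kb windows. The motif share was 60.6% at a fold enrichment of at least 5, 78.0% at the 95th percentile and 42.8% with 100 bp either side. Start sites were found at 9 genes within 500 bp and at 28 within 2 kb. The share of flanked genes between facing motifs was 42.1% to 52.9% over 7 alternatives added after the data were seen. Pileups of 10 to 30 fragments give wide intervals, so low sites do not separate genes.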
